A study of Mus musculus with 9 samples.

Results

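The apolipoprotein genes measured here were Apoa1, Apoa2, Apoa4, Apob, Apoc1, Apoc2, Apoc3, Apod, Apoe and Apoh. They were taken as all probes of the array whose gene name equals one of these 10 symbols, which gave 15 of the 41174 probes and 10 of the 27962 gene names on the array. The family was chosen by these same intensities, because Apoc3 stands out between the genotypes, so the genotype differences of its members are a description and carry no test. On lactation day 2 (L2), RNA was taken from mammary gland number 4 of 9 dams, 4 of them WT and 5 hNAG-1, and each dam had its own array, while the labels give C57BL/7 as the strain background of both genotypes, where the study's text writes C57BL/6. The hNAG-1 dams carry a transgene for human NAG-1 (also named GDF15), a secreted protein of the TGF-beta superfamily, and the transgene is meant to be expressed in all tissues. The study worked mainly with one of its transgenic lines and combined lines in some experiments, and which held for the arrayed dams was not given in the sources used here. The labels give the age of the dams only as the day of lactation. By the study's methods, glands for RNA came from dams of the breeding study that had borne 4 litters, and each gland was processed on its own.

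Apolipoproteins are the protein part of the particles that carry triglyceride and cholesterol in blood. ApoB forms the frame of chylomicrons and very low density lipoprotein, ApoA1 and ApoA2 that of high density lipoprotein, while the ApoC proteins and ApoE tune lipolysis and uptake by receptors. Most of these genes are known for high expression in liver and intestine, whereas Apoe, Apoc1 and Apoc2 are also known from macrophages and Apod from many other tissues. A lactating gland takes up triglyceride from these particles through lipoprotein lipase for milk fat.

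The probes were 60 bases long, and their places are those of the array design on mouse build mm7. Both Apoc3 probes, which had the largest log2 fold changes above 0 of the family, lay on the minus strand of chromosome 9, A_51_P310629 at chr9:46191393-46191452 and A_52_P574306 at chr9:46191403-46191462. They share 50 bases, marked in capitals, so they are not separate measurements of the gene.
Apoc3 A_51_P310629: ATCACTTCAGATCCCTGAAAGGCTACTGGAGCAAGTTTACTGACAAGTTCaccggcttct
Apoc3 A_52_P574306: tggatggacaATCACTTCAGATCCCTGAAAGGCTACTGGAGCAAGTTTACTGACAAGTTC

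The Apoa1 probe (chr9:46187961-46188020, plus strand) and the Apoa2 probe (chr1:171195820-171195879, plus strand) are shown because both genes were highest in the same mice.
Apoa1 A_51_P408082: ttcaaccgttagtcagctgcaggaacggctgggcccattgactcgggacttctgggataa
Apoa2 A_51_P128973: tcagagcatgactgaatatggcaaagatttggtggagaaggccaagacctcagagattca

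Apob had 5 probes on the plus strand of chromosome 12, and the ones that were well above background on all WT arrays are shown, A_51_P380650 at chr12:7967854-7967913 and A_51_P413088 at chr12:7963823-7963882.
Apob A_51_P380650: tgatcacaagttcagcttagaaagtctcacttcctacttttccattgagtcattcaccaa
Apob A_51_P413088: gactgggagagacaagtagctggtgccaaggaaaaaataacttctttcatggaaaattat

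Several of these genes sit side by side. In the RefSeq table of assembly GRCm38.p6, Apoa1, Apoc3, Apoa4 and Apoa5 follow one another on chromosome 9, and the mm7 places of their probes span 41.2 kb. Apoc2, Apoc4, Apoc1 and Apoe lie together on chromosome 7, where the probes span 24.9 kb.

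Values are the deposited intensity of a probe, scaled so that every array has the same 75th percentile, and they can be compared between mice but not between probes. The 75th percentile before scaling lay between 533 and 1185, and 59.8% to 76.1% of the features of an array were well above background by the scanner software. Depending on the array, the dimmest probe well above background had a scaled intensity of 14.4 to 31.7. The arrays lay on 3 slides, with WT 1 on slide 1, hNAG-1 1 to 4 on slide 2, and WT 2 to 4 with hNAG-1 5 on slide 3. With slide as a block, the genotypes were therefore compared on slide 3 only, as hNAG-1 5 against WT 2 to 4. Correlations between arrays ran from 0.941 to 0.991 across probes. All 11 markers of secretory mammary epithelium were well above background on all arrays, and Csn2 (beta-casein) lay between 263007 and 492425 in WT and between 327468 and 516732 in hNAG-1. WT 2 held the lowest value of all 11 of those markers and the highest value of 6 of 7 lymphocyte markers. Mouse Gdf15 lay between 84.5 and 206 in WT and between 48.6 and 103 in hNAG-1. Its probe reads the mouse gene and does not check the human transgene. In RNA of a whole gland, fewer cells of a type and less RNA per cell cannot be told apart.

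Of the 15 apolipoprotein probes, 10 were well above background on all arrays of one genotype or the other (65.0% of all probes were), 5 on all 9 arrays (Apoa4, Apoc1, Apoc2, Apod and Apoe; 56.1% of all probes), and 3 on none (Apob A_51_P436690, A_51_P470542 and A_52_P441070). In hNAG-1 minus WT, 7 probes had a log2 fold change above 0, as 47.9% of all probes did, and 8 below. The median was -0.05 over the 15 probes and -0.02 over all 41174 probes. The balance turned with the processing, to 9 probes above 0 after quantile normalization or normexp, 11 with median scaling and 10 with slide as a block, where the median was 0.53 over the 15 probes and 0.19 over all probes. An unadjusted p under 0.05 was reached by 4 of the 15 probes, both Apoc3 probes with higher and 2 Apob probes with lower values in hNAG-1, where 5.60% of all probes reached it, 1.15% higher and 4.45% lower, and the adjusted p was passed by 0 of the 15 and 0.00243% of all probes (limma). With slide as a block neither these Apoc3 nor these Apob probes reached it, and 2 of the 15 did, Apob A_51_P436690 and A_52_P441070, both with higher values and not well above background in any mouse, where 7.61% of all probes reached it. This contrast chose the family, so nothing is read from these counts. The genotypes did not overlap for 1 of the 15 probes, Apoc3 A_52_P574306, and this held in the same direction for 0.658% of all probes.

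**Figure D1:**
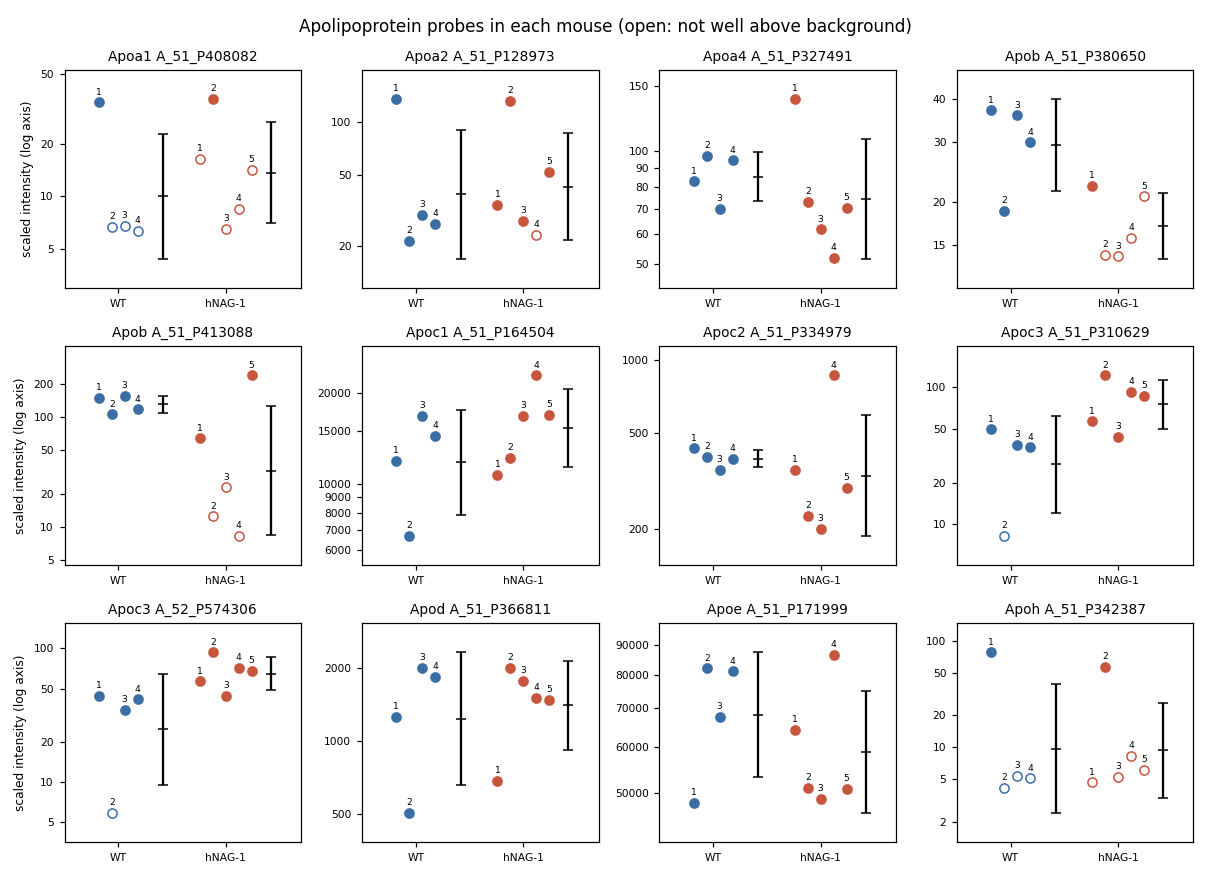
Scaled intensity (log axis) of the 12 apolipoprotein probes that were well above background on at least 1 array, for each WT mouse (blue) and hNAG-1 mouse (red), numbered by replicate. Open circles were not well above background, and black bars give the mean ± SD of the log2 values. Apoa1, Apoa2 and Apoh stand high in WT 1 and hNAG-1 2, Apoc3 is lowest in WT 2, and Apob A_51_P413088 ranges from 8.31 to 240 in hNAG-1.

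Apoc3, whose protein inhibits lipoprotein lipase and slows the uptake of triglyceride-rich remnants, was higher in hNAG-1 by both probes. With A_51_P310629, the scaled intensity was 49.4, 8.22, 38.1 and 36.5 in WT 1 to 4 and 56.5, 122, 43.8, 92.9 and 87.2 in hNAG-1 1 to 5. In hNAG-1, 4 of 5 mice exceeded all WT mice, and hNAG-1 3 lay below WT 1. With A_52_P574306, it was 44.2, 5.85, 34.7 and 41.6 in WT 1 to 4 and 56.7, 93.7, 44.3, 71.9 and 68.1 in hNAG-1 1 to 5. Here no hNAG-1 mouse lay below a WT mouse, but the gap was narrow, with 44.2 in WT 1 next to 44.3 in hNAG-1 3. Mean intensity by A_51_P310629 was 33.1 ± 17.5 (SD, n = 4) across WT mice and 80.5 ± 31.1 (SD, n = 5) across hNAG-1 mice.

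The log2 fold change of Apoc3 was 1.46 (SE 0.53) by A_51_P310629, a ratio of 2.75, and 1.39 (SE 0.57) by A_52_P574306, a ratio of 2.63. WT 2 was the lowest mouse by both probes and the only one not well above background. Without WT 2 the log2 fold changes were 0.88 and 0.70, the lowest values that leaving out 1 mouse gave, and the highest were 1.74 and 1.67 without WT 1. Normexp background correction, which compresses dim probes, gave 0.72 and 0.58. On slide 3 hNAG-1 5 had 87.2 by A_51_P310629, above WT 2 to 4, and the log2 fold changes with slide as a block were 1.95 (SE 0.92) and 1.74 (SE 1.01). The size thus depended on WT 2 and on the background correction.

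The neighbours of Apoc3 on chromosome 9 did not show its order of mice. Apoa4, an apolipoprotein of chylomicrons known from intestine, was 83.0, 97.4, 70.0 and 94.6 in WT 1 to 4 and 138, 73.2, 61.7, 51.9 and 70.6 in hNAG-1 1 to 5. Its highest and lowest mice were both hNAG-1, and the log2 fold change of -0.20 (SE 0.27) was smaller than its SE and became 0.02 with median scaling and 0.03 with quantile normalization. Apoa5, which promotes lipolysis and is not a member of the family as chosen here, was 98.1, 21.4, 24.0 and 14.0 in WT 1 to 4 and 30.7, 50.4, 17.8, 25.5 and 48.4 in hNAG-1 1 to 5. Its log2 fold change was 0.15 (SE 0.55; Benjamini-Hochberg adjusted p = 0.94, limma) and 1.33 (SE 0.56) with slide as a block, it was well above background on 3 arrays of each genotype, and its highest mice were WT 1 and hNAG-1 2.

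Among the 26760 other probes well above background throughout one genotype or the other, 70 had a Pearson r of at least 0.9 with Apoc3 A_51_P310629 over the log2 values of the 9 arrays. The 5 named genes with the highest r were Tm2d1 (0.976), Smim7 (0.964; listed on the array as 9130011J15Rik), Tmem14c (0.963), Grpel1 (0.962) and Dstn (0.962), against 0.981 for the second Apoc3 probe. All points share the arrays and their scaling, and WT 2 is far from the others in Apoc3. Without WT 2, over 8 arrays, these values were 0.949, 0.951, 0.918, 0.867 and 0.915, and 0.975 for the second Apoc3 probe. The log2 fold changes of the 5 genes lay between 0.19 and 0.28, and so were far smaller than that of Apoc3.

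Apob, the large protein on which chylomicrons and very low density lipoprotein are built, had 5 probes. Of these, 2 stood well above background on all WT arrays, and both had lower values in hNAG-1 in the fit without slide. They were picked by detection in WT, which favours probes that are higher in WT, so their shared direction is no added support. With A_51_P413088, the scaled intensity was 149, 106, 156 and 118 in WT 1 to 4 and 64.0, 12.5, 23.0, 8.31 and 240 in hNAG-1 1 to 5. All 4 hNAG-1 mice on slide 2 lay below every WT mouse, while hNAG-1 5 on slide 3 lay above every WT mouse. The probe was well above background on all 4 WT arrays and on 2 of 5 hNAG-1 arrays. The log2 fold change was -2.01 (SE 0.87), and its size rests on hNAG-1 values of which most were not well above background. It was -0.60 after normexp background correction and -1.62 with the floor, and with slide as a block it was 0.94 (SE 0.97), so its direction turned. For this probe slide 2 and genotype cannot be told apart.

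With A_51_P380650, Apob was 37.0, 18.9, 35.7 and 29.8 in WT 1 to 4 and 22.4, 14.1, 13.9, 15.8 and 20.8 in hNAG-1 1 to 5. In hNAG-1, 3 of 5 mice lay below every WT mouse, and the probe was well above background on all WT arrays but on only 1 of 5 hNAG-1 arrays. The log2 fold change was -0.79 (SE 0.25), and it was -0.39 (SE 0.42) with slide as a block, -0.30 with quantile normalization and -0.07 after normexp background correction. The other 3 probes, with log2 fold changes of 0.72, -0.53 and -0.16, never stood well above background and give no ratio. Of these, A_51_P470542 (chr12:7972247-7972306) and A_52_P441070 (chr12:7972307-7972366), lie end to end on the build, and all their values were between 4.14 and 15.5.

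**Figure D2:**
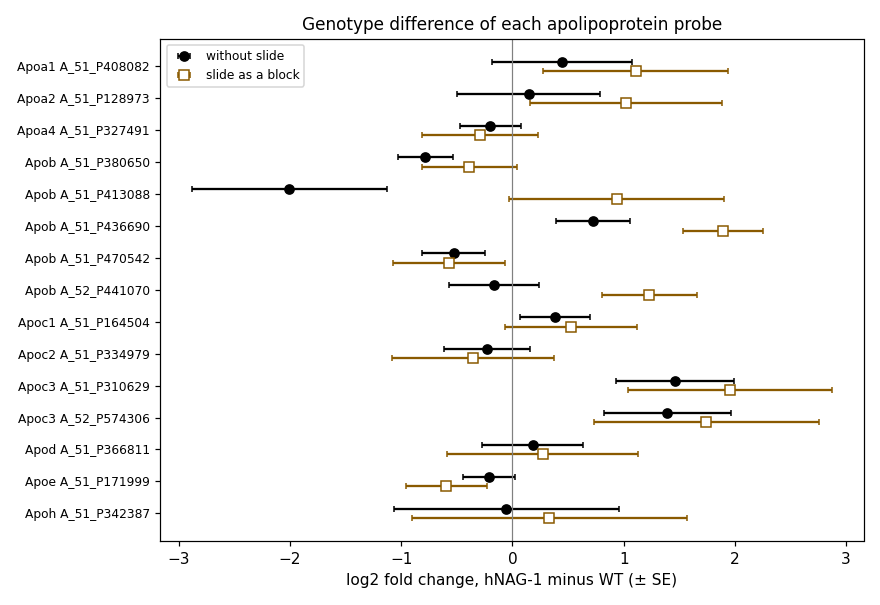
Log2 fold change (hNAG-1 minus WT) ± SE of each of the 15 apolipoprotein probes, from the fit without slide (black circles) and with slide as a block (open squares), where hNAG-1 5 is compared with WT 2 to 4. Both Apoc3 probes stand to the right of 0 in both fits, while Apob A_51_P413088 moves from -2.01 to 0.94.

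Apoa1 and Apoa2, the main proteins of high density lipoprotein, and Apoh (beta-2 glycoprotein I, a phospholipid-binding plasma protein) each had their highest values in WT 1 and hNAG-1 2, a mouse of either genotype. Apoa1 was 34.5, 6.68, 6.76 and 6.37 in WT 1 to 4 and 16.4, 36.2, 6.49, 8.48 and 14.2 in hNAG-1 1 to 5, and only WT 1 and hNAG-1 2 were well above background. Apoa2 was 135, 21.5, 29.9 and 26.7 in WT 1 to 4 and 34.1, 131, 27.7, 23.2 and 52.3 in hNAG-1 1 to 5. Apoh was 78.2, 4.17, 5.41 and 5.14 in WT 1 to 4 and 4.69, 57.1, 5.32, 8.36 and 6.14 in hNAG-1 1 to 5, and again only WT 1 and hNAG-1 2 were well above background. The ratio of the highest to the lowest mouse was 6.27 for Apoa2, while the lowest mice of Apoa1 and Apoh were not above background and give no exact ratio.

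In the fit without slide, the genotype differences of these 3 genes were no larger than their SE, and those of Apoa1 and Apoh rest mostly on values near background. The log2 fold changes were 0.45 (SE 0.63) for Apoa1, 0.15 (SE 0.65) for Apoa2 and -0.05 (SE 1.01) for Apoh. With slide as a block, where hNAG-1 5 is compared with WT 2 to 4, they were 1.11, 1.02 and 0.33. For Apoa1 and Apoh none of these mice was well above background. Single mice set the sign for Apoa2, which had -0.25 without hNAG-1 2, -0.14 without WT 2 and 0.74 without WT 1. With WT 1 and hNAG-1 2 both left out, Apoa2 had 0.34, while Apoa1 and Apoh were left with no mouse well above background and give no ratio. Apoa1 was printed in 10 spots on each array. In WT 1, 8 of its 10 spots were well above background and in hNAG-1 2, 7 of 10, with coefficients of variation of 10.4% and 20.7% between spots, so the high values did not come from a single spot.

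Some hepatocyte markers moved with these genes, and their part in the result was not tested. Of 12 hepatocyte markers, 6 had WT 1 and hNAG-1 2 as their highest mice, as 1.37% of all probes did. These were Alb, Ahsg, Ambp, Fgb, Hpx and Cps1, named after their values were seen. Of the other 6, Tat was highest in WT 4, Itih3 in WT 2, Fgg in hNAG-1 4 (2296) and Cyp3a11 in hNAG-1 5, while Ttr and Fga were not well above background in any mouse. Alb (albumin) was 1070, 222, 161 and 319 in WT 1 to 4 and 262, 2236, 515, 350 and 774 in hNAG-1 1 to 5. Ahsg (fetuin A) was 725 in WT 1 and 733 in hNAG-1 2 and between 7.84 and 114 in the other mice. The summed intensity of the 12 markers ranged from 1236 to 3818 in WT and from 1321 to 4634 in hNAG-1, and 3 of the 12, Ttr, Fga and Cps1, were not well above background on any array.

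**Figure D3:**
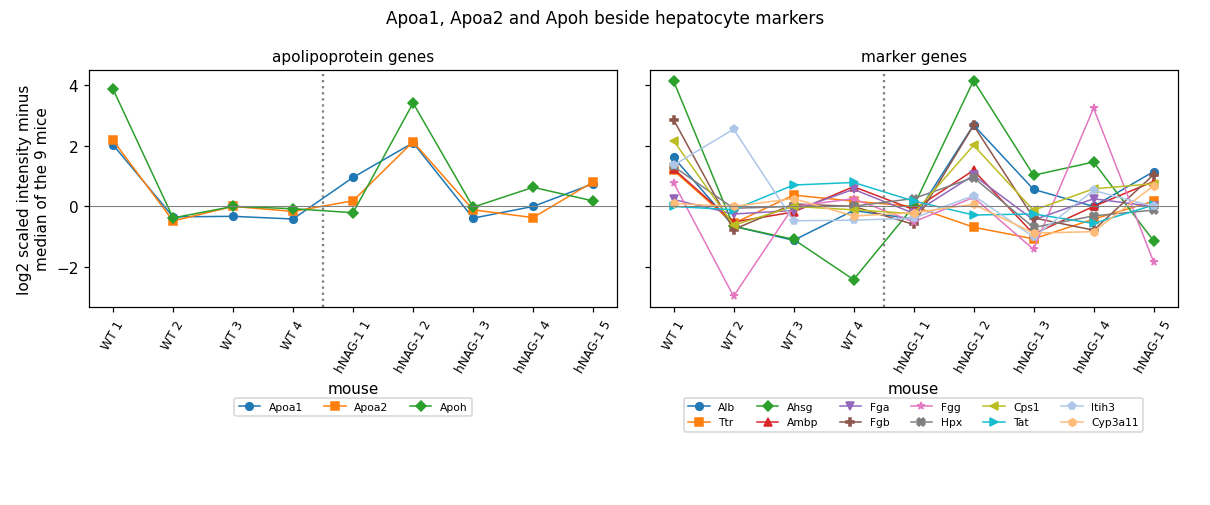
Log2 scaled intensity of each gene minus its median over the 9 mice, for Apoa1, Apoa2 and Apoh (left) and for all 12 hepatocyte markers (right), with the genotypes separated by the dotted line. Peaks in WT 1 and hNAG-1 2 are seen on the left and for 6 of the 12 markers, while Fgg peaks in hNAG-1 4 and Itih3 in WT 2. Ttr, Fga and Cps1 were not well above background on any array.

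Apoc3 showed this pattern only in part. By both probes hNAG-1 2 was the highest of all mice and WT 1 the highest WT mouse. WT 1 had 49.4 by A_51_P310629, below 4 of the 5 hNAG-1 mice. Without both mice the log2 fold changes of the Apoc3 probes were 1.57 and 1.54. Of 6 enterocyte markers, a second cell type known for Apoc3, 0 had WT 1 and hNAG-1 2 as the highest mice, and their summed intensity ranged from 581 to 808 in WT and from 530 to 856 in hNAG-1. The enterocyte markers were not set against the order of mice in Apoc3, and the part of enterocyte or hepatocyte RNA in Apoc3 was not tested.

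Apoe, Apoc1 and Apoc2, the neighbours on chromosome 7, were well above background in every mouse, and each was highest in hNAG-1 4. Apoe, a ligand of the low density lipoprotein receptor family, was 48072, 81967, 67651 and 81019 in WT 1 to 4 and 64198, 50983, 48780, 86550 and 50741 in hNAG-1 1 to 5. The genotypes overlapped over nearly the whole range. The mean was 69677 ± 15817 (SD, n = 4) across WT mice and 60250 ± 15930 (SD, n = 5) across hNAG-1 mice, with a difference on the log2 scale of -0.21 (SE 0.23) that was 0.00 with median scaling and -0.59 (SE 0.36) with slide as a block. Its 10 spots agreed within a coefficient of variation of 1.14% to 3.29% on an array.

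Apoc1, an inhibitor of lipoprotein uptake, was 11899, 6700, 16840 and 14396 in WT 1 to 4 and 10726, 12213, 16811, 22893 and 16925 in hNAG-1 1 to 5. WT 2 was lowest, and the log2 fold change was 0.38 (SE 0.31) with all mice and 0.11 without WT 2. Apoc2, the cofactor that lipoprotein lipase needs, was 431, 397, 351 and 390 in WT 1 to 4 and 351, 226, 201, 863 and 297 in hNAG-1 1 to 5. The WT mice lay close together, with 392 ± 32.9 (SD, n = 4), and the hNAG-1 mice far apart, with 388 ± 272 (SD, n = 5), since 3 lay below every WT mouse and hNAG-1 4 above. The log2 fold change of Apoc2 was -0.23 (SE 0.39), and -0.58 without hNAG-1 4. Apoc4, the gene between Apoc2 and Apoc1, was well above background on 2 WT and 2 hNAG-1 arrays, with 11.8 to 36.6 in WT and 11.3 to 39.0 in hNAG-1 and a log2 fold change of 0.06 (SE 0.47; Benjamini-Hochberg adjusted p = 0.972, limma).

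Macrophage markers were high in the same mouse, and their part in the result was not tested. The highest mouse was hNAG-1 4 for 7 of 11 macrophage markers, for 3 of the 15 apolipoprotein probes and for 13.5% of all probes. Lyz2 (lysozyme) was 186439 in hNAG-1 4 and between 54064 and 138367 in the other mice, while Cd68 was 984 in hNAG-1 4 and 1029 in WT 2. Cd68 and Csf1r were highest in WT 2, and Cd14 and Cd163 in WT 4. The summed intensity of the 11 markers ranged from 84022 to 176065 in WT and from 78129 to 244391 in hNAG-1, and all 11 were well above background in every mouse. Most of this sum is Lyz2. WT 2, the second highest mouse in the sum, was also second highest in Apoe, with 81967, but had the lowest Apoc1 and 397 for Apoc2, near the other WT mice.

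**Figure D4:**
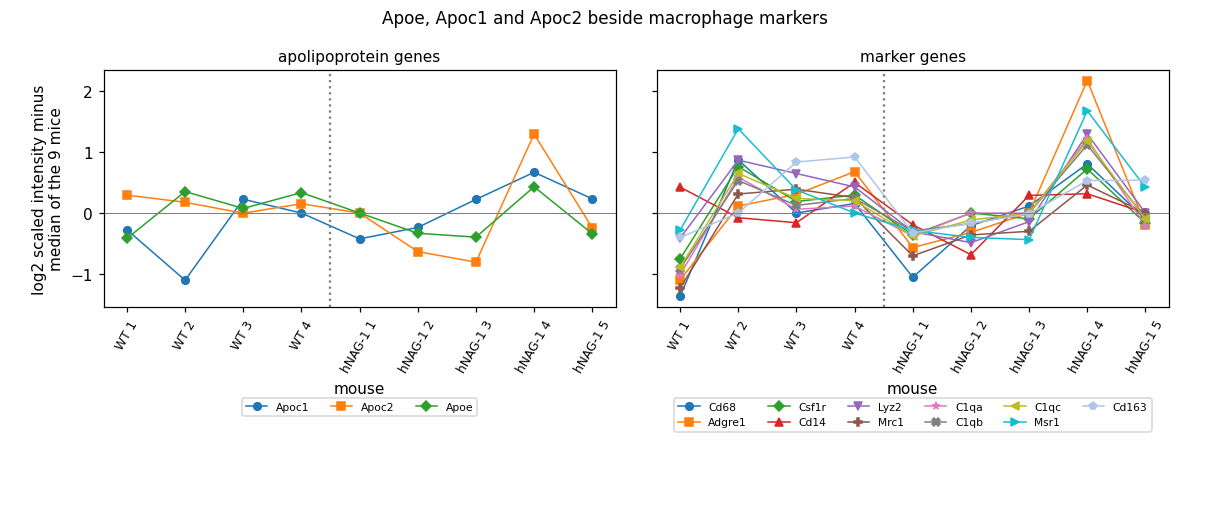
Log2 scaled intensity of each gene minus its median over the 9 mice, for Apoe, Apoc1 and Apoc2 (left) and for all 11 macrophage markers (right), with the genotypes separated by the dotted line. The 3 apolipoprotein genes and 7 of the 11 markers are highest in hNAG-1 4, and in WT 2, where 2 of the markers are highest, Apoe is second highest and Apoc1 lowest.

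Apod, a lipocalin unlike the other apolipoproteins in structure, was 1262, 504, 2005 and 1844 in WT 1 to 4 and 683, 2005, 1776, 1512 and 1484 in hNAG-1 1 to 5. A single mouse of each genotype stood low, WT 2 and hNAG-1 1, and the genotypes overlapped over the range. The mean was 1404 ± 679 (SD, n = 4) across WT mice and 1492 ± 500 (SD, n = 5) across hNAG-1 mice. The log2 fold change was 0.18 (SE 0.45), and -0.25 without WT 2.

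WT 2 was the lowest mouse for 7 of the 15 apolipoprotein probes and for 29.6% of all probes. It was lowest for Apoa2, Apoc1, Apod and both Apoc3 probes, which overlap in sequence. The remaining 2, Apoh and Apob A_51_P436690, were not well above background in WT 2 or in most other mice, so their order has no meaning. This was also the mouse with the lowest secretory and the highest lymphocyte markers. The summed intensity of the 7 lymphocyte markers was 16527 in WT 2, against 759 to 2985 in the other WT mice and 513 to 2659 in hNAG-1. Their part in the low Apoc3 of WT 2 was not tested.

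The other genes of the lipoprotein pathway were tested with limma. They did not choose the family, but their lists were made with earlier results of these data known, so the p-values are not independent of them. Of 55 genes matched, 2 had an unadjusted p under 0.05, where 5.60% of all probes had one, and 0 passed the adjusted p. Both genes had higher values in hNAG-1 without overlap between the genotypes, which 0.658% of all probes showed. They were named because of this p, which favours a lack of overlap, so the lack of overlap adds no support. One was Apol9b, an intracellular apolipoprotein L (listed on the array as 2310016F22Rik), with 981 ± 40.6 (SD, n = 4) across WT mice and 2876 ± 2405 (SD, n = 5) across hNAG-1 mice and 7084 in hNAG-1 2. Its log2 fold change was 1.24 (SE 0.45; Benjamini-Hochberg adjusted p = 0.661, limma) and 0.20 with slide as a block, and its signal cannot be parted with certainty from that of near-identical Apol genes. The second was Lrpap1, a chaperone of lipoprotein receptors, with 6221 ± 602 (SD, n = 4) across WT mice and 7845 ± 696 (SD, n = 5) across hNAG-1 mice. Its log2 fold change was 0.34 (SE 0.14; Benjamini-Hochberg adjusted p = 0.661, limma) and 0.44 with slide as a block. With slide as a block neither Apol9b nor Lrpap1 had an unadjusted p under 0.05, and Apoa5 and Lipc had one instead, the latter from a probe not well above background in any mouse.

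By list, 1 of 15 other apolipoprotein genes (Apol9b) and 1 of 12 receptors and their adaptors (Lrpap1) had an unadjusted p under 0.05, against 0 of 16 genes of lipoprotein assembly, lipolysis and remodelling and 0 of 12 transcription factors. The median log2 fold changes of these lists were -0.06, 0.22, -0.19 and -0.13, in that order, and -0.003, 0.07, 0.13 and 0.09 with slide as a block, so that the sign of the last 2 turned. WT 2 was the lowest mouse for 9 of the 12 receptor genes, against 29.6% of all probes, and without WT 2 the medians were -0.35, 0.15, -0.03 and -0.20. In the list of assembly and remodelling the largest difference was that of Lcat, the enzyme that esterifies cholesterol on high density lipoprotein, with -0.86 (SE 0.46). Lcat was well above background on only 1 of 5 hNAG-1 arrays, and its value was -0.12 with slide as a block, -0.34 with the floor and -0.03 after normexp background correction. Clu (clusterin), abundant in all mice, was 108656 ± 36923 (SD, n = 4) across WT mice and 87939 ± 14785 (SD, n = 5) across hNAG-1 mice, a log2 fold change of -0.24 (SE 0.28; Benjamini-Hochberg adjusted p = 0.776, limma).

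Of the 62 marker genes of cell types, limma gave 0 with an unadjusted p under 0.05 and 0 with an adjusted one. The largest difference of each list was Ahsg with 1.10 (SE 1.39) among 12 hepatocyte markers, Sis with -0.55 (SE 0.47) among 6 enterocyte markers, and Lyz2 with -0.31 (SE 0.39) among 11 macrophage markers. It was Retn with 1.00 (SE 0.48) among 9 adipocyte markers, Lalba with 0.34 (SE 0.22) among 11 secretory markers, Cr2 with -1.91 (SE 1.45) among 7 lymphocyte markers and Col1a1 with 0.31 (SE 0.35) among 6 fibroblast markers. The median log2 fold changes of the lists, in this order, were -0.12, -0.19, -0.10, 0.26, 0.13, -1.15 and 0.11. With slide as a block they were 0.21, 0.40, -0.44, 0.16, 0.01, -0.28 and 0.22, so that those of the hepatocyte and enterocyte lists turned sign, and Sis had 0.99. Without WT 2 the median was 0.16 for the macrophage and -0.06 for the secretory list, both turned in sign, and -0.49 for the lymphocyte list. Adipoq (adiponectin) was 9248 in WT 1 and between 28667 and 34921 in the other 8 mice.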

How the data were processed

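Each of the 9 Agilent whole mouse genome arrays was hybridized in 1 color. For every feature the authors deposited the intensity that Feature Extraction (version 9.5.3.1) gives after subtracting background, with no scaling between arrays. The deposited series table held the same values. The methods name an ANOVA with a p threshold of 0.05, and no normalization is given in the sources used here.

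Here control features were left out, replicate spots averaged, each array scaled to its 75th percentile (common value 797) and log2 taken, which gave 41174 probes. WT and hNAG-1 were then set against each other in limma (3.58.1; R 4.3.3; lmFit and eBayes, two-sided, no covariates, 4 WT against 5 hNAG-1), with Benjamini-Hochberg adjustment over all probes. The scripts were tested on simulated data. A probe counted as well above background when most of its spots were. Depth does not apply to arrays, and their number limits the precision. The labels do not say more of the animals than 1 sample each, so p-values measure the spread between these samples.

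The members and lists were chosen with earlier results of these data known. The lists were 4 of the lipoprotein pathway (other apolipoproteins, assembly and remodelling, receptors, transcription factors) and 7 of markers (hepatocyte, enterocyte, macrophage, adipocyte, secretory epithelium, lymphocyte, fibroblast), with the brightest probe of a gene. Genes were matched by array name, accession or a unique synonym in RefSeq. This matching was corrected after values had been seen, and Apol9a was not matched. Named were all member probes, list genes with an unadjusted p under 0.05 or otherwise the largest difference of the list, Apoa5, Apoc4, Clu, Alb, Adipoq, Csn2, Cd68, mouse Gdf15 and the 5 genes most like Apoc3. For 1 list, the value of the gene that this rule names is not reported here. The alternatives were slide as a fixed block, slide as a random block, only slide 3, a replicate block, single mice left out, the methods' test, the series table, normexp (offset 50), scaling by quantiles, by the median or not at all, a floor of 20, and features with outlier flags or dim probes removed. Slide as a block with quantile normalization or median scaling, and leaving out WT 1 with hNAG-1 2, were added after seeing the data. Probe sequences are those of the array files.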

Additional observations from a re-analysis of the deposited data

Results flagged for a closer look

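In 52 groups of mice, 26 probes in each genotype, 8 values lay far from the others of their genotype on the log2 scale by Dixon's test. Chance alone does this in about 1 of 20 groups, but nothing is read from the number here, since the family was chosen by these intensities, the Apoc3 probes overlap, Apob A_51_P436690 was not well above background in any mouse, and Apoa1 and Apoh were so only in WT 1 and hNAG-1 2. WT 2 was low for Apoc3, with 8.22 by A_51_P310629 and 5.85 by A_52_P574306, and for Apob A_51_P436690, with 4.07. WT 1 was high for Apoa1, with 34.5, and for Apoh, with 78.2, and hNAG-1 2 was high for Apoh, with 57.1. Apod was low in hNAG-1 1, with 683. Lyz2 was high in hNAG-1 4, with 186439.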

How the results depend on the processing

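The median log2 fold change of the 15 apolipoprotein probes, -0.05, ranged from -0.22 to 0.20 as each mouse was left out. It was 0.53 with slide as a fixed block and on slide 3 alone, and 0.37 and 0.42 when quantile normalization or median scaling was added to the block. Median scaling shifted the median of all probes to 0.20, no scaling to -0.16 and the slide block to 0.19. Over all probes, 2307 had an unadjusted p under 0.05 (20.5% higher in hNAG-1). The count was 1058 after normexp (52.6% higher), 2626 after quantile normalization (58.2%), 3686 with median scaling (72.4%), 2066 without scaling (2.86%), 2001 with the floor (38.8%), 3134 with the slide block (90.8%), 3723 on slide 3 alone (91.5%) and 1216 without WT 1 and hNAG-1 2. With single mice left out it ranged from 1163 without hNAG-1 2 to 5924 without hNAG-1 5, with 1509 without hNAG-1 3. The adjusted p was passed by 1 probe, by 138 with the slide block, by 219 and 78 with quantile normalization or median scaling added to it, and by 0 with normexp, quantile normalization, median scaling, no scaling, slide 3 alone, the replicate block, the methods' test or WT 1 and hNAG-1 2 left out, with a range of 0 to 215 for single mice left out.

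The 2 pathway genes with an unadjusted p under 0.05, Apol9b and Lrpap1, were replaced by Apoa5 and Lipc with the slide block, Lipc from a probe not well above background in any mouse. The number of such genes became 5 with median scaling, 1 without scaling, 4 with quantile normalization and the slide block, 5 without WT 1, 4 without hNAG-1 1, 10 without hNAG-1 5, and 1 without WT 3, hNAG-1 2 or hNAG-1 3. The 0 marker genes became 3 after normexp and on slide 3 alone, and 1 with quantile normalization, median scaling, no scaling or WT 1 and hNAG-1 2 left out. They became 4 without WT 4, 3 without hNAG-1 5, 2 without WT 1, WT 2 or WT 3, and 1 without hNAG-1 1, and the lowest count was 0. The cause of these changes was not tested.

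The genotypes share replicate numbers, but the mice differ and no label pairs them. The deviations of mice with the same number correlated at 0.28, -0.20, -0.14 and -0.31, which cannot settle a pairing. The samples were treated as unpaired. Replicate 5 exists only in hNAG-1, so with a replicate block hNAG-1 5 does not enter the genotype comparison. With a replicate block the counts were 5447 probes, 10 pathway genes and 3 marker genes, and the median over the apolipoprotein probes was 0.08. Apol9b and Lrpap1 kept their direction in all settings. Probes near background, such as those of Apoa1, Apoh and most of Apob, are limited by signal, as is Apob A_51_P413088 in most hNAG-1 mice.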

Other observations

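The serum amyloid A genes Saa1, Saa2 and Saa3 encode acute phase apolipoproteins of high density lipoprotein, and their mice were named here after values were seen. Saa3 was 43021, 22221, 96458 and 85765 in WT 1 to 4 and 47496, 35425, 54511, 135941 and 13943 in hNAG-1 1 to 5. It was highest in hNAG-1 4, as Apoe, Apoc1 and Apoc2 were, and lowest in hNAG-1 5. Saa1 and Saa2, which are near-identical in sequence, had the same highest and lowest mice, with 576641 and 125227 for Saa1. Saa4, of the same list, did not share this order. It was highest in hNAG-1 5, with 46.5, and had 9.83 in hNAG-1 4, and it was well above background on only 1 of 5 hNAG-1 arrays.

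Angptl4, an inhibitor of lipoprotein lipase, was 64639, 49792, 54538 and 73131 in WT 1 to 4 and 25399, 21694, 41482, 26819 and 82948 in hNAG-1 1 to 5. All 4 mice on slide 2 lay below every other mouse, as they did for Apob A_51_P413088. For both probes hNAG-1 5 was the highest of all. Angptl4 was named here after its values were seen, and the share of all probes with this order was not counted. An effect of the slide was not tested, and slide 2 held only hNAG-1 mice.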
